A study of Mus musculus with 18 samples.

Results

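Lymphatic endothelial cells (LECs) and stromal cells sorted from the small intestine of the same mutant genotype were compared by RNA sequencing of transcript 3′ ends. The comparison took the 3 libraries whose titles name LATS1/2 KO LECs and the 5 libraries whose titles name LATS1/2 KO intestinal stromal cells (IntSCs), which made 8 of the 18 libraries of the series. All 8 came from adult C57BL/6J mice whose label joins PDGFRb+-CreERT2-Tomato+ with the floxed alleles Lats1f/f and Lats2 f/f, so both groups carried the tamoxifen-inducible CreERT2 recombinase driven by Pdgfrb and the Tomato reporter, and mice received tamoxifen. The Pdgfrb promoter acts in fibroblasts, pericytes and a subset of smooth muscle cells, so the deletion was aimed at the IntSCs and not at the LECs. IntSCs were collected by the Tomato signal after CD45+, CD326+ and CD31+ cells had been removed with beads. The LECs, labelled as lacteal LECs, were enriched after removal of CD45+ and CD326+ cells with antibodies to CD31 and podoplanin, the products of Pecam1 and Pdpn. The other 10 libraries, 4 of WT LECs and 6 of WT IntSCs from mice labelled PDGFRb+-CreERT2-Tomato+ without the floxed alleles, served only to show where the mutant contrast differed from the control one. The purity of the sorted cells was not assessed in the study, and the labels do not say which libraries share a mouse or an experiment.

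Lacteals are the blind-ended lymphatic vessels at the core of each intestinal villus, and they take up dietary fat packed in chylomicrons. The transcription factor Prox1 sets lymphatic endothelial identity, and the receptor VEGFR3, encoded by Flt4, receives the growth factors VEGF-C and VEGF-D. Around the lacteal lie fibroblasts, smooth muscle cells and pericytes, which make the collagen matrix and secrete many of the ligands whose receptors sit on the endothelium. LATS1 and LATS2 are the kinases of the Hippo pathway that phosphorylate the coactivators YAP and TAZ and keep them out of the nucleus. Loss of both kinases lets YAP and TAZ act with the TEAD factors on target genes such as Ctgf and Cyr61.

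The 3 KO LEC libraries held 6900493, 8914526 and 7392848 counts, and the 5 KO IntSC libraries held between 6485735 and 8095271. Levels are given below as CPM, counts per 1000000 counts of the library's TMM-scaled total. Pearson correlations of log2 CPM ran from 0.681 to 0.711 among the LEC libraries, from 0.769 to 0.903 among the IntSC libraries and from 0.527 to 0.592 between them, and IntSC 4 gave the lowest values within its group (0.769 to 0.811). After every library was thinned to 6485735 counts, a read was found for 10597.7 ± 166.401 genes in LECs (SD, n = 3) and for 14041.4 ± 1238.24 in IntSCs (SD, n = 5). A two-sided exact permutation test gave p = 0.0357 for this difference, the smallest that 3 against 5 libraries allow, and 0.0446 after adjustment over 5 library measures. Rn45s, the ribosomal RNA precursor, took 9.90% ± 0.835 of the counts in LECs and 16.7% ± 4.27 in IntSCs. Lats1 stood at 6.87, 15.4 and 14.0 CPM in LEC 1 to LEC 3 and between 13.2 and 22.0 CPM in the IntSCs. Lats2 stood at 65.4, 14.1 and 129 CPM in the LECs and between 81.5 and 135 CPM in the IntSCs. Both ranges overlapped and neither gene passed the test between the cell types (edgeR adjusted p = 0.728 and 0.376). Reads at the 3′ end can persist when internal exons are lost, so these levels do not check the deletion.

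The 2 cell types differed at 3302 of 12758 genes tested, or 25.9% (edgeR quasi-likelihood test, adjusted p under 0.05). Of these, 1162 genes (9.11% of those tested) were higher in LECs and 2140 (16.8%) were higher in IntSCs. The counts given below for each gene list are to be read beside these shares. Fold changes are given as log2 of LEC over IntSC, so that positive values mean more RNA in LECs, and the median over all genes tested was −0.21. After a fold change, ± gives an approximate standard error, derived as its size over the square root of the test's F statistic. It is least reliable for genes with few reads in a group. A difference of at least 4-fold was reached by 523 of the genes higher in LECs and by 1786 of those higher in IntSCs. No LEC library held a read of 752 of the genes higher in IntSCs, whereas only 6 genes higher in LECs had no read in any IntSC library. Of the 12758 genes tested, called or not, 1030 had reads in only a single cell type. At equal depth fewer genes were detected in LECs (10597.7 against 14041.4), and there were 3 LEC libraries against 5 IntSC libraries. The part that detection and library number played in this asymmetry was not tested. For 325 of the 3302 genes the 2 groups still overlapped, and over all genes tested 4113 (32.2%) did not overlap. When limma-voom estimated the spread apart for each cell type, by a weight per cell type shared by all genes, 1054 genes were higher in LECs and 1006 in IntSCs. This was a split of 51.2% to 48.8%. Without these weights limma-voom called 1301 and 3034 genes, or 30% to 70%, and the edgeR split was 35.2% to 64.8%. These are bulk samples, so fewer cells of a type and less RNA per cell cannot be told apart, and the p-values measure the spread between libraries, which may be technical in part.

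**Figure D1:**
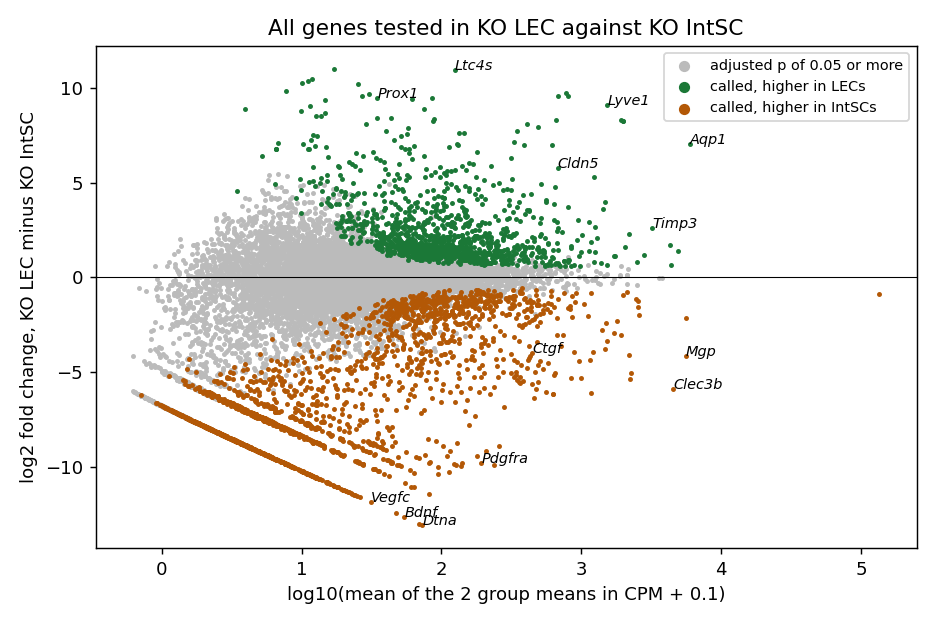
Each point is 1 of 12758 genes, with log10 of the mean of the 2 group means in CPM plus 0.1 on the x axis and its log2 fold change, LEC over IntSC, on the y axis. Green points were called higher in LECs, brown points higher in IntSCs and grey points were not called. The 1162 genes higher in LECs and the 2140 higher in IntSCs spread on both sides of 0, and the oblique streaks at the bottom are genes with no or few reads in the LEC libraries.

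Markers of each cell type followed the labels. The LEC list was represented by 10 genes, of which 9 were higher in LECs, with a median of 7.61. Prox1 was read at 117, 57.0 and 34.0 CPM in LEC 1 to LEC 3, and at 0, 0, 0.123, 0.155 and 0.136 CPM in IntSC 1 to IntSC 5. Only 3 Prox1 counts were found in all IntSC libraries together, which gave a ratio of 814 between the pooled groups (exact 95% interval 278 to 3950, counting error only). Flt4 was read at 1279, 1126 and 1247 CPM in LECs and at 5.66, 9.76, 5.92, 22.6 and 4.76 CPM in IntSCs. Every LEC library thus stood far above every IntSC library, and Flt4 differed by 6.97 ± 0.52 on the log2 scale (edgeR adjusted p = 1.08e-05). Lyve1, a hyaluronan receptor of lymphatic capillaries, was read at 2973, 2698 and 3494 CPM in LECs and at 0.673, 1.67, 3.95, 16.9 and 4.63 CPM in IntSCs. Cldn5, a tight-junction claudin of endothelium, was read at 1452, 1175 and 1353 CPM in LECs against 16.4 to 36.3 CPM in IntSCs (5.75 ± 0.28). Reln, Mmrn1, Ccl21a, Thy1 and Nrp2 completed the 9 genes, with log2 fold changes between 2.26 and 9.56. The exception was Pdpn, which is used to sort LECs but is also made by fibroblasts. It was read at 152, 165 and 236 CPM in LECs and between 256 and 401 CPM in IntSCs, with no overlap and a contrast of −0.88 ± 0.23 on the log2 scale (edgeR adjusted p = 0.0192). That call was lost without LEC 1 (adjusted p = 0.0583) and without LEC 2 (0.0568).

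The stromal list was higher in IntSCs in all of its 10 genes, without overlap, and its median was −5.22. Pdgfrb, whose promoter drove the recombinase, was read at 894, 789, 712, 1232 and 887 CPM in IntSC 1 to IntSC 5 and at 21.3, 10.8 and 0.507 CPM in LEC 1 to LEC 3. Its lowest IntSC library thus stood well above its highest LEC library (−6.38 ± 0.92, edgeR adjusted p = 0.000725). Col5a1, a fibrillar collagen chain, was read at 497, 358, 360, 590 and 517 CPM in IntSCs and at 2.29, 21.8 and 0.507 CPM in LECs (−5.81 ± 1.02, edgeR adjusted p = 0.00242). For both genes LEC 3 had the lowest level. Pdgfra, the receptor that marks villus fibroblasts, stood between 303 and 468 CPM in IntSCs and between 0.318 and 0.573 CPM in LECs (−9.80 ± 0.36). Other members of the list kept more reads in the LEC libraries. Dcn, a small proteoglycan, stood at 207, 189 and 320 CPM in LECs against 3025 to 4803 CPM in IntSCs. The summed level of the list was 344, 443 and 593 CPM in the LEC libraries and between 8745 and 14400 CPM in the IntSC libraries.

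**Figure D2:**
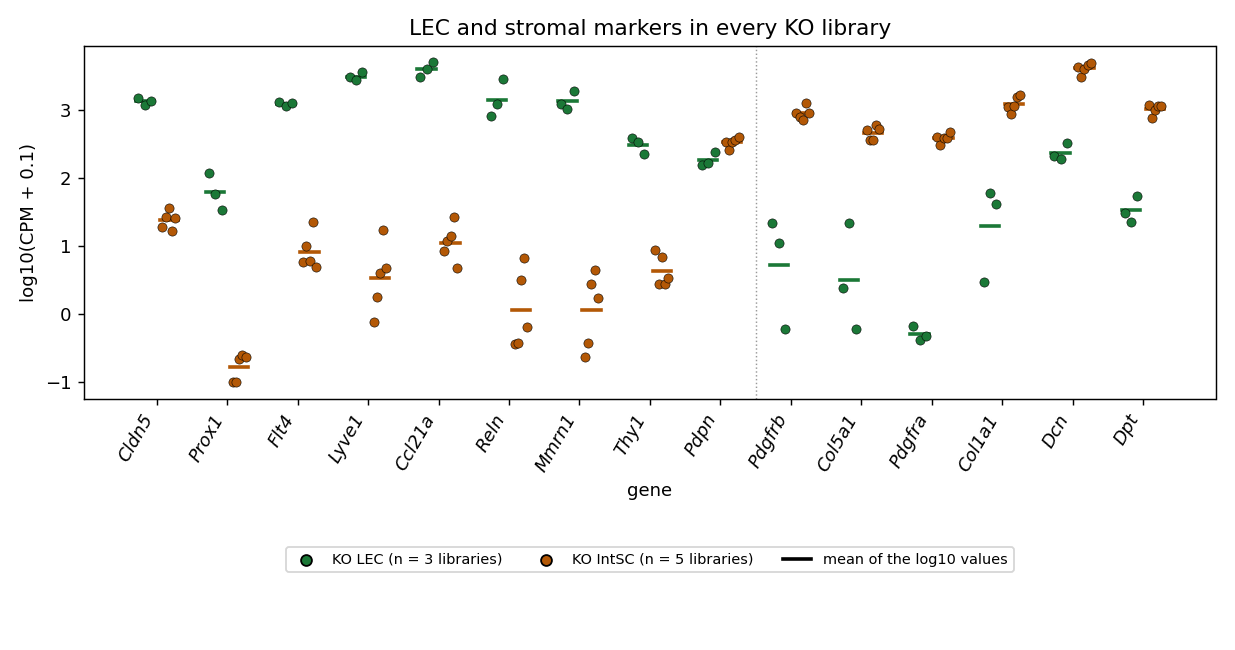
Levels of LEC and stromal markers in the 3 KO LEC and 5 KO IntSC libraries, 1 point per library and a bar for the mean of the log values, on the y axis as log10 of CPM plus 0.1, so that a gene without reads sits at −1. The 2 groups stand apart for every marker shown, with Pdpn the only LEC marker higher in IntSCs.

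Endothelial genes that lymphatic and blood vessels share were mostly higher in LECs. Of 12 such genes tested, LECs had more of 9 and IntSCs of 1, with a median of 3.16. Kdr, which encodes VEGFR2, was read at 1309, 837 and 1026 CPM in LECs and between 36.2 and 103 CPM in IntSCs. Pecam1, whose product CD31 was part of the LEC gate, was read at 560, 492 and 418 CPM in LECs and still at 82.3, 140, 123, 39.5 and 67.1 CPM in IntSCs, from which CD31+ cells had been removed. Esam, an adhesion molecule of endothelium and mural cells, was the gene higher in IntSCs (−2.20 ± 0.49, edgeR adjusted p = 0.00841). For blood endothelium, 8 markers were tested, with 4 called toward LECs and 3 toward IntSCs. Aqp1, a water channel, was the most strongly read of these 4 genes, at 9970, 13480 and 12150 CPM against 41.2 to 140 CPM in IntSCs (7.01 ± 0.36). Emcn, Gpihbp1 and Cd300lg were also higher in LECs, with log2 fold changes between 4.32 and 7.13. Sox17 and Vwf, an arterial factor and von Willebrand factor, had no read in any LEC library and were at least 385-fold and at least 56.8-fold higher in IntSCs (edgeR adjusted p = 0.000164 and 0.0106). The floor behind such bounds is 3 counts over the pooled LEC libraries, or 0.124 CPM. Flt1, which encodes VEGFR1, was higher in IntSCs as well.

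Mural cell genes that passed were mostly higher in IntSCs, whose sort includes pericytes and smooth muscle cells. Of 9 smooth muscle markers, 7 were higher in IntSCs, with a list median of −4.38. Acta2, smooth muscle actin, was read at 689, 905, 875, 397 and 1090 CPM in IntSCs and at 45.1, 45.8 and 25.2 CPM in LECs (−4.35 ± 0.40). Myh11 and Des, the smooth muscle myosin and desmin, gave −5.03 ± 0.94 and −6.46 ± 0.89. With the spread estimated apart for each cell type, 5 of the 7 calls were kept, and Myh11 fell short (limma-voom adjusted p = 0.0599). Smtn was higher in LECs (0.94 ± 0.31, edgeR adjusted p = 0.0490), but it passed in only 1 of 8 fits that left out a library, with the highest adjusted p, 0.159, without LEC 1. Among 6 pericyte markers, Rgs5, Notch3 and Cspg4 were higher in IntSCs and Kcnj8, a potassium channel subunit, was higher in LECs (2.56 ± 0.49, edgeR adjusted p = 0.00364). The call of Cspg4 was kept in 3 of 8 such fits (highest adjusted p 0.107, without IntSC 3). None of the 3 pericyte calls in IntSCs was kept when the spread was estimated apart for each cell type. The list median was −4.98, or −4.37 with genes that had no LEC read set at their bound.

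Markers of cells that neither sort aimed at were read in both groups. No epithelial marker passed among 9 tested, and the summed level of that list was 78.3 to 223 CPM in LECs and 69.2 to 213 CPM in IntSCs, with Epcam at 0, 4.14 and 27.0 CPM in LECs and between 0.140 and 16.7 CPM in IntSCs. Genes of Paneth cells, the antimicrobial cells of the crypt base, summed to 743, 149 and 1102 CPM in LEC 1 to LEC 3 and to 298 to 556 CPM in IntSCs. The groups overlapped for each of the 11 genes tested, and none passed. In WT libraries of either cell type the same list summed to 1.87 to 88.4 CPM. Without LEC 2, the lowest library, 3 Paneth cell genes were called higher in LECs, and without LEC 3, 1 was called higher in IntSCs. At an unadjusted p under 0.05, edgeR counted 1 epithelial gene, toward IntSCs, and no Paneth or erythroid gene, and DESeq2 called 1, 0 and 0 after adjustment. Leukocyte markers summed to 201 to 324 CPM in LECs and to 34.0 to 68.0 CPM in IntSCs. H2-Aa and H2-Ab1, which encode an MHC class II molecule, were higher in LECs (edgeR adjusted p = 0.0326 and 0.00133), and Csf1r, a macrophage receptor, was higher in IntSCs. The defining leukocyte gene Ptprc, encoding CD45, had 1 count in all LEC libraries and reached 5.03 CPM in IntSC 5. The H2-Aa call was kept in 2 of 8 fits without 1 library (highest adjusted p 0.0793, without LEC 2). Of the erythroid, glial, mesothelial and Cajal cell lists, Tubb3 and Etv1 were the only genes called, both higher in IntSCs, and the Tubb3 call was lost without LEC 2 (adjusted p = 0.0568) and without LEC 3 (0.0611). The part that such cells played in the results was not tested.

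Transcription factors separated the 2 lineages. Of 22 endothelial and LEC factors tested, LECs had more of 13 and IntSCs of 1, and the list median was 2.72 against −0.21 for all genes. Tbx1, a T-box factor needed for gut lymphatics, was read at 144, 118 and 85.0 CPM in LECs and at 0.135, 0, 0.123, 0.619 and 4.35 CPM in IntSCs (6.77 ± 1.19, edgeR adjusted p = 0.00239). Foxc2, a factor of lymphatic valves, was read at 115, 41.8 and 58.2 CPM in LECs and at most at 3.54 CPM in IntSCs, in IntSC 5. Maf was read at 708, 719 and 907 CPM in LECs against 46.5 to 83.8 CPM in IntSCs, which made it one of the most evenly separated factors (3.53 ± 0.24). Nr2f2, the COUP-TFII partner of Prox1, kept 248 to 344 CPM in IntSCs and stood at 1432, 908 and 790 CPM in LECs (1.82 ± 0.22). Sox18, which induces Prox1 in the embryo, was read at 24.9, 9.45 and 2.66 CPM in LECs and passed only narrowly (4.95 ± 1.60, edgeR adjusted p = 0.0440). Its call was kept in 2 of 8 fits without 1 library, with the highest adjusted p, 0.134, without LEC 1. Nfatc1, a valve factor, was higher in LECs in the full fit (1.41 ± 0.46, edgeR adjusted p = 0.0454) and in 1 of those 8 fits (highest 0.0976, without IntSC 5). Klf4 was higher in IntSCs (−1.01 ± 0.30) and lost its call in 4 of the 8 fits, with 0.0999 without LEC 2.

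Among 22 stromal factors tested of 24 listed, 11 were higher in IntSCs and 1 in LECs, and the median was −5.15, or −4.84 with genes at their bound. Gli1, the Hedgehog effector that marks stromal cells below the epithelium, was read at 286, 272, 252, 309 and 280 CPM in IntSCs and at 0.716, 0.212 and 0 CPM in LECs. Zeb2 was read at 302 to 562 CPM in IntSCs and at 0.859, 0.212 and 0.381 CPM in LECs (−9.94 ± 0.51, edgeR adjusted p = 1.97e-06). Foxf1, a Hedgehog target of gut mesenchyme, stood at 151 to 287 CPM in IntSCs and under 1 CPM in each LEC library (−9.19 ± 0.51). Nkx2-3, a homeobox factor of the gut wall, was the most strongly read of the list, at 665 to 870 CPM in IntSCs and 31.5, 5.63 and 46.8 CPM in LECs. Gli3 and Snai2 had no read in LECs and were at least 161-fold and at least 134-fold higher in IntSCs. Hic1 was higher in LECs (0.87 ± 0.27, edgeR adjusted p = 0.0364), a call kept in 3 of 8 fits without 1 library (highest 0.103, without LEC 2). Members that did not pass included Tcf4, Nfib and Zeb1, whose groups overlapped (log2 fold changes between −0.10 and 0.35).

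Lymphangiogenic ligands were called toward IntSCs, and their receptors in both directions. Of 7 genes for VEGF ligands and their processing that were tested, 5 were higher in IntSCs and none in LECs, with a median of −8.58, or −8.12 with genes at their bound. At an unadjusted p under 0.05, edgeR counted 1 toward LECs, as did DESeq2 after adjustment. Vegfc was read at 57.0, 17.7, 112, 68.1 and 58.1 CPM in IntSC 1 to IntSC 5, and no LEC library held a single read. Vegfc was therefore at least 516-fold higher in IntSCs (edgeR adjusted p = 0.000230). Figf, which encodes VEGF-D, was read at 33.7, 37.1, 45.3, 42.1 and 40.1 CPM in IntSCs and at 0.286, 0.106 and 0 CPM in LECs, a pooled ratio of 322 (exact 95% interval 110 to 1561). Vegfa was read at 58.9, 23.0, 69.9, 89.0 and 33.3 CPM in IntSCs and at 0.143, 0.212 and 0 CPM in LECs, a ratio of 441 (151 to 2140). The groups did not overlap for any of the 3 ligands, and Vegfa and Vegfc each had their lowest IntSC level in IntSC 2. Ccbe1, the secreted cofactor that brings VEGF-C to its protease, had no LEC read and was at least 127-fold higher in IntSCs (edgeR adjusted p = 0.00338). The protease gene Adamts14 was higher in IntSCs as well, whereas Adamts3, the main VEGF-C protease, had 145 counts in LECs and 21 in IntSCs and did not pass the count filter. Vegfb and Pgf did not pass the test (edgeR adjusted p = 0.948 and 0.0738). Each of the 5 calls was kept in all 8 fits without 1 library. With the spread estimated apart for each cell type, 3 of the 5 were kept, and Vegfc and Vegfa fell short (limma-voom adjusted p = 0.0734 and 0.0724).

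All 5 VEGF receptors and coreceptors tested were called. Flt4, Kdr and Nrp2, the last of which is the neuropilin that binds VEGF-C, were higher in LECs, and Flt1 and Nrp1 were higher in IntSCs. Nrp2 was read at 981, 924 and 644 CPM in LECs and at 155, 157, 136, 288 and 154 CPM in IntSCs (2.26 ± 0.27, edgeR adjusted p = 0.000237). Nrp1 showed the reverse order, with 200, 172, 163, 252 and 220 CPM in IntSCs and 0.859, 9.55 and 1.52 CPM in LECs (−5.63 ± 0.77, edgeR adjusted p = 0.000493). Flt1 was read at 105, 177, 162, 43.5 and 71.7 CPM in IntSCs and at 0.143, 7.32 and 10.5 CPM in LECs, and its call was not kept with the spread apart (limma-voom adjusted p = 0.143).

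**Figure D3:**
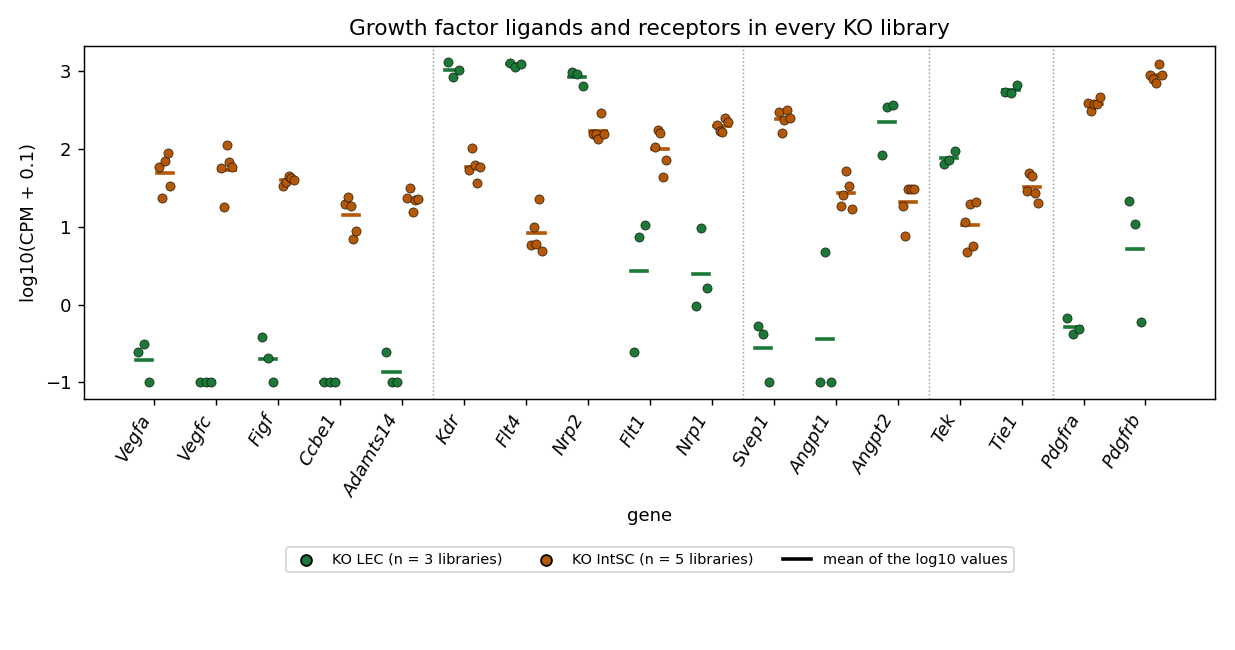
Levels of VEGF, angiopoietin, PDGF and related ligand and receptor genes in the 8 mutant libraries, 1 point per library and a bar for the mean of the log values, on the y axis as log10 of CPM plus 0.1. Vegfc sits at −1 in the 3 LEC libraries, where it had no read, and at 17.7 to 112 CPM in the IntSC libraries, and Flt4 shows the reverse order.

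Calls in the angiopoietin and PDGF families fell as follows. Angpt2, an angiopoietin made by endothelium, was read at 84.6, 349 and 363 CPM in LECs and between 7.53 and 30.8 CPM in IntSCs (3.50 ± 0.54, edgeR adjusted p = 0.00108). Its receptor gene Tek and the related receptor gene Tie1 were higher in LECs too (2.62 ± 0.57 and 4.08 ± 0.31). Svep1, a matrix protein that acts in lymphatic development, was read at 299, 161, 237, 317 and 246 CPM in IntSCs and at 0.430, 0.318 and 0 CPM in LECs, without overlap (−9.90 ± 0.63, edgeR adjusted p = 4.50e-06). Both PDGF receptors were higher in IntSCs. No PDGF ligand was called higher in LECs. Pdgfc was called higher in IntSCs at a low level (no LEC read, 0 to 17.4 CPM in IntSCs, edgeR adjusted p = 0.0417) and kept that call in 1 of 8 fits without 1 library (highest 0.0720, without LEC 2). Pdgfb, the endothelial ligand that recruits pericytes, was read at 0.143, 2.87 and 0.127 CPM in LECs and at 8.03 to 24.7 CPM in IntSCs, and it fell just short of the threshold (edgeR adjusted p = 0.0525).

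In the Notch pathway the ligand Dll4 was read at 154, 89.3 and 129 CPM in LECs and between 1.08 and 14.4 CPM in IntSCs (3.69 ± 0.62, edgeR adjusted p = 0.00193). Notch1 was higher in LECs (2.37 ± 0.33) and Notch3, the mural cell receptor, was higher in IntSCs, at 139 to 370 CPM against 0.573, 0.106 and 18.6 CPM. Jag2 and Hey2, a ligand and a target, were higher in IntSCs at levels of at most 21.5 CPM. Hes1, the most strongly read target, overlapped between groups, and its call in favour of IntSCs (−0.77 ± 0.26, edgeR adjusted p = 0.0492) was kept in 2 of 8 fits without 1 library (highest 0.122, without LEC 1). Of 6 genes in the adrenomedullin pathway, which promotes lymphatic growth and barrier function, the receptor gene Calcrl, its partner Ramp2 and the decoy receptor gene Ackr3 were higher in LECs. Ramp2 was read at 1466, 1087 and 854 CPM in LECs and between 81.6 and 216 CPM in IntSCs (edgeR adjusted p = 0.000163). The ligand gene Adm was read at 55.97, 40.4 and 0 CPM in LECs and at 109 to 181 CPM in IntSCs without passing (edgeR adjusted p = 0.160).

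Class 3 semaphorins, secreted guidance cues, were divided by member. Sema3a, Sema3d and Sema3f were higher in LECs, with Sema3a at 98.1, 175 and 174 CPM in LECs and between 0 and 14.9 CPM in IntSCs (5.30 ± 1.29, edgeR adjusted p = 0.0129). Sema3c was higher in IntSCs, with 1 count in the LEC libraries together and 22.8 to 46.7 CPM in IntSCs, a pooled ratio of 811 (exact 95% interval 145 to 32050). Without LEC 1, 3 semaphorins were called higher in IntSCs in place of 1. Their receptor gene Plxnd1 was higher in LECs, and Plxna3 was higher in IntSCs at no more than 9.52 CPM, a call lost without LEC 2 (adjusted p = 0.0557) and without LEC 3 (0.0590).

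Among the chemokine genes listed, only Ccl21a was called toward LECs. Of 16 tested, 6 were higher in IntSCs and 1 in LECs, beside 16.8% and 9.11% of all genes, and the median was −2.11. Ccl21a, the CCR7 ligand by which lymphatic vessels draw in dendritic cells, was read at 3004, 3881 and 4979 CPM in LECs and at 8.49, 11.6, 13.7, 26.5 and 4.63 CPM in IntSCs (8.25 ± 0.53, edgeR adjusted p = 4.50e-06). Ccl21b and Gm1987, near-identical copies that were not in the list, were called toward LECs too (8.29 ± 0.50 and 8.24 ± 0.52). How the reads of these genes were divided is uncertain. Cxcl14 had 1 count in the LEC libraries together and 39.5 to 58.6 CPM in IntSCs, a pooled ratio of 1239 (exact 95% interval 222 to 48980). Cxcl16 stood at 27.4 to 55.7 CPM in IntSCs and at 0, 0.106 and 0.127 CPM in LECs. Cxcl5 and Ccl8 had no LEC read and were at least 205-fold and at least 59.4-fold higher in IntSCs. The calls of Cxcl1 and Ccl11, which attract neutrophils and eosinophils, were kept in 2 and 3 of 8 fits without 1 library, with highest adjusted p of 0.0841 without IntSC 3 and 0.0909 without LEC 3. With the spread apart, 3 of the 6 stromal chemokine calls were kept.

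Calls among the growth factors of the TGF-beta and BMP family were toward IntSCs in edgeR. Of 12 ligands tested, 7 were higher in IntSCs and none in LECs, with a median of −4.26, or −4.22 with genes at their bound. Bmp4, a differentiation signal of villus mesenchyme, was read at 323, 246, 216, 680 and 197 CPM in IntSCs and at 6.01, 7.32 and 12.3 CPM in LECs, and IntSC 4 was the highest (−5.28 ± 0.55, edgeR adjusted p = 9.11e-05). The Bmp4 call was not kept with the spread apart (limma-voom adjusted p = 0.0749). Bmp1, the procollagen protease, was the most even, at 74.6 to 87.7 CPM in IntSCs and 8.37 to 27.3 CPM in LECs. Inhba and Gdf10 had no LEC read and were at least 94.2-fold and at least 90.5-fold higher in IntSCs. The calls of Bmp2, Bmp5 and Bmp7 were lost in 4 to 6 of the 8 fits without 1 library, with highest adjusted p of 0.0848 without IntSC 3, 0.0562 without IntSC 1 and 0.107 without IntSC 2, and the list count fell to 4 without IntSC 1, IntSC 2, IntSC 3 or IntSC 5. Tgfb2 and Tgfb3 did not pass (edgeR adjusted p = 0.231 and 0.0571). On the receptor side none of 10 was higher in LECs and 4 were higher in IntSCs, beside 9.11% and 16.8% of all genes. Bmpr1a stood at 14.95 to 32.9 CPM in IntSCs with 2 counts in the LEC libraries together, a pooled ratio of 306 (exact 95% interval 84.4 to 2528). Tgfbr3, a coreceptor, was at 147 to 229 CPM in IntSCs and at 40.4, 84.4 and 34.3 CPM in LECs. Eng and Tgfbr2 did not pass, with levels in LECs and IntSCs that overlapped.

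Wnt ligands, R-spondins and secreted antagonists, the stromal signals that sustain the intestinal stem cell niche, were higher in IntSCs for 11 of 14 genes tested, with a median of −8.49, or −6.47 with genes at their bound. Grem1, a BMP antagonist of crypt stroma, was read at 53.9, 25.0, 55.6, 66.7 and 60 CPM in IntSCs and in no LEC library, which made it at least 422-fold higher (edgeR adjusted p = 0.000104). Wnt2b was read at 153, 60.8, 112, 205 and 77.3 CPM in IntSCs and had 1 count in LECs, a pooled ratio of 2915 (exact 95% interval 523 to 115200). Sfrp1 kept a low level in LECs, at 16.3, 62.9 and 57.0 CPM against 617 to 1341 CPM in IntSCs (−4.42 ± 0.50). Dkk2, Dkk3, Wnt5a, Wnt4, Chrdl1, Rspo1 and Rspo2 were among the others, and Rspo1, at 0 to 11.5 CPM in IntSCs, kept its call in 1 of 8 fits without 1 library (highest adjusted p 0.0672, without LEC 2). Wnt2 and Wnt9b went the other way. Wnt2 was read at 117, 135 and 73.3 CPM in LECs and at 0, 2.65, 0.617, 1.08 and 0.544 CPM in IntSCs (6.77 ± 0.90, edgeR adjusted p = 0.000413), and Wnt9b at 113, 19.7 and 37.7 CPM in LECs and under 0.5 CPM in each IntSC library. With the spread apart, 7 of the 11 stromal calls were kept. In the IGF family, Igf1 was read at 293 to 491 CPM in IntSCs and at 1.43, 22.8 and 4.19 CPM in LECs (−5.29 ± 0.82). Igfbp2, Igfbp6 and Igfbp7 were higher in IntSCs, and Igfbp5 was higher in LECs, at 329, 378 and 284 CPM against 57.6 to 144 CPM (1.84 ± 0.30, edgeR adjusted p = 0.00155). Igfbp4 was higher in LECs by 0.63 ± 0.20 and kept that call in 2 of 8 fits without 1 library (highest adjusted p 0.127, without LEC 2).

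Most genes of the fibrillar matrix were higher in IntSCs. Of 26 genes for fibrillar collagens and fibril regulators, 21 were higher in IntSCs and none in LECs, with a median of −4.56, and the count stayed between 20 and 23 when a library was left out. Col3a1 was read at 873, 671, 1374, 1666 and 1575 CPM in IntSCs and at 8.73, 18.7 and 24.1 CPM in LECs (−6.16 ± 0.50, edgeR adjusted p = 1.75e-05). Col1a2 stood at 1193 to 2285 CPM in IntSCs and at 33.1, 96.9 and 128 CPM in LECs (−4.41 ± 0.47). Lox, the enzyme that cross-links collagen, was read at 75.1 to 161 CPM in IntSCs with 2 counts in the LEC libraries together, a pooled ratio of 1564 (exact 95% interval 433 to 12910). Eln, Fbln2, Postn, Tnc and Col5a3 did not pass. Eln, elastin, was read at 386, 366 and 299 CPM in LECs and at 379, 281, 568, 383 and 877 CPM in IntSCs, so that LECs lay within the stromal range. The call of Ogn was kept in 2 of 8 fits without 1 library (highest adjusted p 0.0970, without LEC 3).

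Of 17 basement membrane genes, 9 were higher in IntSCs and 1 in LECs, beside 16.8% and 9.11% of all genes. Their median was −1.36. Col4a1, the main sheet-forming collagen, was read at 697, 553 and 830 CPM in LECs and between 527 and 1013 CPM in IntSCs (−0.10 ± 0.23, edgeR adjusted p = 0.820). Lama4, the laminin chain of endothelium, also overlapped (0.19 ± 0.22). Lama2, the laminin chain of muscle and mesenchyme, stood at 257 to 435 CPM in IntSCs and at 0.859, 0.425 and 0.254 CPM in LECs (−9.44 ± 0.45). Sparc, a collagen-binding protein, was read at 3561 to 5253 CPM in IntSCs and 156, 104 and 136 CPM in LECs. Nid2 was the gene higher in LECs (1.69 ± 0.37, edgeR adjusted p = 0.00744). Of 12 integrin genes tested, Itga6, Itga9 and Itgb1 were higher in LECs and Itga1, Itga8, Itgb4 and Itgb5 in IntSCs. Itga9, needed for lymphatic valves, was read at 165, 123 and 101 CPM in LECs and between 4.71 and 27.8 CPM in IntSCs (2.82 ± 0.48). Itgb1 kept its call in 1 of 8 fits without 1 library (highest adjusted p 0.0980, without LEC 1). Itga1 and Itgb5 kept theirs in 4 and 2 of these fits, with highest adjusted p of 0.0673 without IntSC 1 and 0.0724 without LEC 2.

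Junctional and lipid-handling genes were called mostly toward LECs where they were called. Of 14 junction genes tested, LECs had more of 6 and IntSCs of 3, beside 9.11% and 16.8% of all genes. Their median was 0.86. Cdh5, VE-cadherin, was read at 253, 115 and 151 CPM in LECs and between 9.70 and 25.2 CPM in IntSCs (3.11 ± 0.38, edgeR adjusted p = 0.000256). F11r and Gja1, a junctional adhesion molecule and connexin 43, gave 1.62 ± 0.24 and 2.70 ± 0.34. Of the 3 stromal calls, those of Gja5 and Cgn were each lost in 3 fits without 1 library, of 8 for Gja5 and of the 5 in which Cgn was tested, with highest adjusted p of 0.0602 and 0.0558 without LEC 2. Among 14 genes of caveolae and lipid uptake, 7 were higher in LECs and none in IntSCs, with a median of 1.19. Cav1 and Cav2, the coat proteins of caveolae, were 3.002 ± 0.38 and 3.09 ± 0.26 higher in LECs on the log2 scale. Sdpr, a cavin, was read at 3196, 2440 and 2672 CPM in LECs and at 131 to 220 CPM in IntSCs (3.98 ± 0.20, edgeR adjusted p = 1.97e-06). Fabp4, a fatty acid carrier, was read at 1102, 1228 and 1080 CPM in LECs and at 179, 150, 421, 171 and 139 CPM in IntSCs (2.42 ± 0.35). Cd36, Plin2 and Acsl5, a fatty acid receptor, a lipid droplet coat and an acyl-CoA synthetase, were higher in LECs with log2 fold changes between 1.36 and 1.66. These 3 calls were the least firm, with highest adjusted p of 0.108 without LEC 3, 0.143 without LEC 1 and 0.140 without LEC 2. Lpl, Scarb1 and Fabp5 did not pass.

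Of 16 genes of the Hippo core tested, 2 were higher in IntSCs and none in LECs, beside 16.8% and 9.11% of all genes, and the median was −0.38. Wwtr1, which encodes TAZ, was read at 167, 186 and 149 CPM in LECs and between 64.6 and 134 CPM in IntSCs without passing (0.75 ± 0.28, edgeR adjusted p = 0.0727). The genes called were Vgll3, a TEAD cofactor, and Mob1b, which had no LEC read and were at least 181-fold and at least 32.8-fold higher in IntSCs.

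Target genes of YAP and TAZ were called in both directions. Of 23 tested among 24 listed, 11 were higher in IntSCs and 2 in LECs, against 16.8% and 9.11% of all genes, and the median was −2.67. In WT mice 6 of 22 targets tested were higher in IntSCs and 2 in LECs, and 2 of the list passed the test of the difference between the genotypes. Ctgf, a secreted matrix-associated protein, was read at 761, 237, 1559, 664 and 952 CPM in IntSC 1 to IntSC 5 and at 40.8, 43.9 and 73.8 CPM in LEC 1 to LEC 3. The lowest IntSC level, in IntSC 2, was still above the highest LEC level (−3.98 ± 0.57, edgeR adjusted p = 0.000725), and the call was kept in all 8 fits without 1 library but not with the spread apart (limma-voom adjusted p = 0.0510). Cyr61, a relative of Ctgf, was read at 799, 257, 1366, 863 and 711 CPM in IntSCs and at 351, 131 and 143 CPM in LECs, so that IntSC 2 overlapped with LEC 1 (−1.94 ± 0.52, edgeR adjusted p = 0.0196). Its call was lost without LEC 2 (adjusted p = 0.0619) and without LEC 3 (0.0609). Axl, a receptor tyrosine kinase, was read at 432 to 515 CPM in IntSCs and at 11.3, 25.7 and 32.9 CPM in LECs, and Dlc1, a GTPase-activating protein, at 708 to 1088 CPM and at 83.7, 116 and 45.0 CPM. Amotl2, an angiomotin, was read at 150 to 237 CPM in IntSCs and at 0.430, 5.94 and 48.5 CPM in LECs, with a call kept in 2 of 8 fits without 1 library (highest adjusted p 0.0769, without LEC 2). Ptpn14 and Asap1 were higher in LECs (2.18 ± 0.39 and 1.17 ± 0.34), the latter kept in 3 of 8 such fits (highest 0.136, without LEC 3). Ankrd1, often used as a reporter of YAP activity, had 1 count in LECs and at most 10.6 CPM in IntSCs and fell short (edgeR adjusted p = 0.0540). With the spread apart, 9 of the 11 stromal calls were kept.

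TEAD factors bind the letters GGAATG, which read CATTCC on the other strand. Among the targets called higher in IntSCs, Cyr61, Amotl2, Axl and Wtip held these letters on either strand within the 250 bases before the start of the gene in RefSeq, and F3, Gadd45b and Foxf2 did not. Ptpn14, called higher in LECs, held them as well. So did Ankrd1, Ajuba and Crim1, which were not called, whereas Amotl1, Nt5e, Tgfb2, Rbms3, Myof, Lats2 and Igfbp3, also not called, did not. Ctgf, Dlc1, Arhgef17 and Fjx1, called higher in IntSCs, had no promoter to search. The promoters of Cyr61, a standard reporter of YAP activity, and of Amotl2 are printed as examples with a single match, chosen after their values were seen. Cyr61, listed there as Ccn1, lies on the minus strand at chr3:145649986-145650235 and Amotl2 on the plus strand at chr9:102717554-102717803, both on GRCm38.p6. Sequences run 5′ to 3′ toward the gene start, with the matching letters in capitals.
Cyr61: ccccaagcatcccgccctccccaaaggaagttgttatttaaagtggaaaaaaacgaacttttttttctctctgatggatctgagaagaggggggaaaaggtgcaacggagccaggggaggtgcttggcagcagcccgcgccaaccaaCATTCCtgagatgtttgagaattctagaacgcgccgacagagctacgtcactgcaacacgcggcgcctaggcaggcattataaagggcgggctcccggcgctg
Amotl2: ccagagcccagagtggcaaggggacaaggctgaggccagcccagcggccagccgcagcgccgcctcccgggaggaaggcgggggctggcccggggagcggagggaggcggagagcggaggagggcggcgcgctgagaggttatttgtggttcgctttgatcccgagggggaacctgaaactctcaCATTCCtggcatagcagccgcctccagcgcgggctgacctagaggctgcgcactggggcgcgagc
The match began at −103 in Cyr61 and at −65 in Amotl2, counted from the gene start. Of the 27025 promoters in the same RefSeq table, 3880 (14.4%) held the letters on either strand in a window of the same length. Only 18 of the 24 target genes (75%) had a promoter in that table, which was too few for a share over the list.

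Proliferation and immediate early genes were examined as lists of cell states. Of 23 proliferation genes tested, 5 were higher in LECs, 18 were not called and none was higher in IntSCs, beside 9.11% of all genes called toward LECs and 16.8% toward IntSCs, with a median of 2.47. Top2a, a topoisomerase of dividing cells, was read at 84.5, 93.5 and 25.8 CPM in LECs and between 4.60 and 11.8 CPM in IntSCs (3.18 ± 0.59, edgeR adjusted p = 0.00319). Cdk1, the mitotic kinase, was read at 102, 77.9 and 10.7 CPM in LECs and at most at 5.44 CPM in IntSCs (4.39 ± 1.10). Cenpf, Ube2c and Ccna2 were the others. The summed level of the list was 1217, 881 and 285 CPM in LEC 1 to LEC 3 and 181 to 220 CPM in IntSCs, so that LEC 3 stood near the stromal range. Without LEC 3, 9 genes were called higher in LECs, and without LEC 1 only 3 were, with Ccna2 and Ube2c lost (adjusted p = 0.0922 and 0.0528). Mki67 was read at 28.1, 12.7 and 0.634 CPM in LECs and at 0 to 4.95 CPM in IntSCs and did not pass (edgeR adjusted p = 0.277). The immediate early genes, which respond within minutes to growth factors or to stress during isolation, were higher in IntSCs for 13 of 17 members, with a median of −2.03. Fos was read at 474, 412, 923, 574 and 571 CPM in IntSCs and at 32.8, 19.3 and 53.5 CPM in LECs (−4.07 ± 0.42, edgeR adjusted p = 8.58e-05). Egr1 was read at 2420 to 3597 CPM in IntSCs and at 272, 137 and 180 CPM in LECs, and Junb at 2254 to 4466 CPM and at 338, 458 and 454 CPM. Klf6, Fosl1, Fosl2 and Egr3 did not pass. Their summed level was 2785 to 3088 CPM in LECs and 11210 to 16950 CPM in IntSCs. Where a list above had no call on one side, edgeR counted at an unadjusted p under 0.05 toward LECs 1 TGF-beta or BMP ligand, 1 Hippo core gene and 0 of the PDGF ligands, TGF-beta receptors, fibrillar and immediate early genes. Toward IntSCs the unadjusted counts were 1 proliferation gene and 0 caveolar genes. DESeq2 called 1 of the TGF-beta or BMP ligands after adjustment and 0 genes in the other lists named here.

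**Figure D4:**
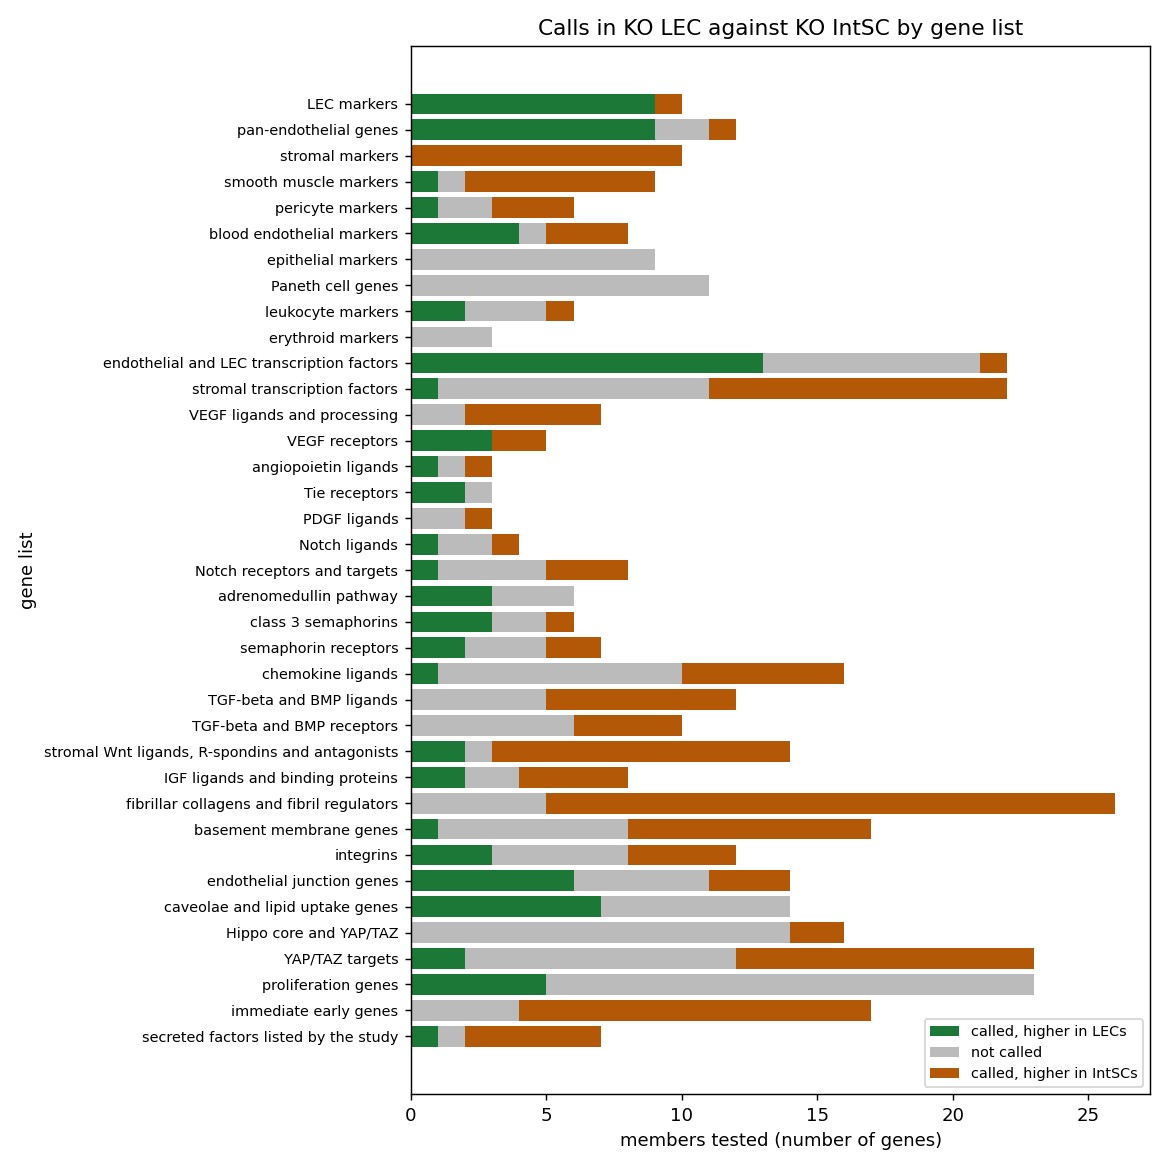
Genes called higher in LECs and higher in IntSCs within each gene list of at least 3 tested members, as stacked horizontal bars of the number of members tested, with members not called in grey. Fibrillar matrix, stromal markers, Wnt genes and immediate early genes were called on the IntSC side (21 of 26, 10 of 10, 11 of 14 and 13 of 17), and LEC markers and endothelial factors on the LEC side (9 of 10 and 13 of 22).

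Genes picked by the size of the difference extended these groups. Among genes with at least 50 CPM in the higher group, the largest differences toward LECs were those of Ltc4s, Edaradd, Adgrg3, Pkd2l1, Reln, Mmrn1, Stab2, Mrc1, Prox1, Alox12e, Lyve1, Dapk2, Cda, Tnfaip8l3 and Gmfg. Ltc4s, leukotriene C4 synthase, was read at 283, 307 and 159 CPM in LECs and at no more than 0.310 CPM in any IntSC library (10.95 ± 0.60, edgeR adjusted p = 2.59e-06). Stab2 and Mrc1, a hyaluronan scavenger and the mannose receptor, are both known from lymphatic sinuses. Stab2 was read at 20.9, 79.6 and 59.7 CPM and Mrc1 at 145, 241 and 131 CPM in LECs, with less than 1 CPM in every IntSC library. The largest differences toward IntSCs were those of Dtna, Gm15217, Bdnf, Slit3, Vegfc, Grem1, Speg, Nfatc4, Fmod, Wnt2b, Spata13, Myom1, Hspb7, Dkk3 and Lox, the first 7 of which had no read in any LEC library. Dtna, a dystrophin partner, was read at 131, 142, 139, 166 and 151 CPM in IntSCs and was at least 1175-fold higher there. Bdnf, a neurotrophin, was read at 164, 75.6, 73.2, 124 and 104 CPM (at least 868-fold), and Slit3, a guidance cue, at 96.4, 69.3, 75.5, 138 and 90.6 CPM (at least 750-fold). The secreted factors singled out in the study of these mice, Wisp2, Tnfsf15, Bdnf, Ebi3, Angpt2, Vegfc and Ctgf, had been chosen on these samples, so their 5 calls toward IntSCs and 1 toward LECs are not independent evidence of their direction. The call of Tnfsf15 was kept in 1 of 8 fits without 1 library (highest adjusted p 0.1002, without LEC 1). By level, the leading genes with at least a 4-fold difference were Aqp1, Timp3, Ccl21a, Gm1987, Ccl21b, Serinc3, Lyve1, Sdpr, Egfl7 and Fgl2 in LECs and Mgp, Malat1, Clec3b, Sparc, Adamdec1, Dcn, Junb, Aldh2, Igfbp7 and Ppap2b in IntSCs. Mgp, which inhibits calcification, was read at 8934, 6308, 8056, 14180 and 15630 CPM in IntSCs and at 398, 590 and 790 CPM in LECs (−4.16 ± 0.39). Clec3b, tetranectin, was read at 6401 to 13280 CPM in IntSCs and at 166, 135 and 155 CPM in LECs (−5.88 ± 0.32, edgeR adjusted p = 2.59e-06).

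The same contrast in the control mice shared no library with the mutant one. In WT mice, 2763 of 12203 genes (22.6%) differed between LECs and IntSCs, 1260 (10.3%) toward LECs and 1503 (12.3%) toward IntSCs. Over 11862 genes tested in both genotypes, 758 were called higher in LECs in both, 892 were called higher in IntSCs in both, and 4 were called in opposite directions. Of the 3101 mutant calls among them, 2883 had the same sign in WT mice, and the fold changes across genes, which are not independent replicates, had a Pearson r of 0.656 and a Spearman rho of 0.643. The calls in both genotypes made up 53.2% of the mutant calls and 61.5% of the WT calls. Toward LECs, 66.3% of the mutant calls were also called in WT mice, and toward IntSCs, 45.6%.

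A test of the difference between the 2 contrasts, with all 4 groups in 1 fit, called 238 of 14015 genes (1.7%). The contrast was more positive in the mutant mice for 39 genes (0.278%) and more negative for 199 (1.42%). Of the 199, 181 were higher in IntSCs within the mutant mice. These 181 had a median level of 0.0954 CPM in KO LECs, 12.4 CPM in WT LECs, 39.3 CPM in KO IntSCs and 34.4 CPM in WT IntSCs. All 181 were lower in KO LECs than in WT LECs by their means, and 101 were higher in KO IntSCs than in WT IntSCs. The 181 genes were chosen by their calls in these same libraries, which favours such directions. KO and WT levels were also scaled in separate fits, so they are not on a strictly common scale. Of the 10 stromal markers, 2 passed this test. The summed level of all 10 was 344 to 593 CPM in KO LECs and 2202, 716, 740 and 683 CPM in WT LEC 1 to WT LEC 4. In IntSCs the sum was 8745 to 14400 CPM in KO and 12390 to 18270 CPM in WT libraries. The part that stromal RNA in the WT LEC libraries played in the interaction calls was not tested. Without WT LEC 1, 273 genes were called. The count was 461 without KO LEC 2, 379 without KO LEC 3 and 161 without KO IntSC 1.

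Ctgf was among the genes whose contrast differed between genotypes. In WT mice it was read at 348 ± 198 CPM in LECs (SD, n = 4) and at 133 ± 83.6 CPM in IntSCs (SD, n = 6), a contrast of 1.39 ± 0.52 that did not pass (edgeR adjusted p = 0.0698), whereas in the mutant mice it was higher in IntSCs. The interaction for Ctgf was −5.36 (edgeR adjusted p = 0.00750) and passed under all 22 alternatives. Vegfc was read at 0 to 3.25 CPM in WT LECs and at 0.628 to 14.3 CPM in WT IntSCs, and its interaction passed in the full fit (edgeR adjusted p = 0.0390) and under 8 of 22 alternatives. Fos and Junb also differed, with interactions of −2.67 and −2.14 that passed under all 22 (edgeR adjusted p = 0.00233 and 0.00203). Fos stood at 95.3 to 228 CPM in WT LECs against 19.3 to 53.5 CPM in KO LECs, and at 274 to 617 CPM in WT IntSCs. Pdgfb was called in the interaction too (−6.46, edgeR adjusted p = 0.0182), with 14.8 to 71.3 CPM in WT LECs. In the other direction, the histone genes Hist1h2ap and Hist1h2ao, near-identical copies whose reads may be divided uncertainly, stood at 898, 648 and 265 CPM and at 449, 325 and 138 CPM in KO LEC 1 to KO LEC 3, and at no more than 123 and 59.5 CPM in any WT LEC library. Igfbp5, which binds insulin-like growth factors, reversed its order, from 284 to 378 CPM in KO LECs over 57.6 to 144 CPM in KO IntSCs to 139 to 153 CPM in WT LECs under 166 to 318 CPM in WT IntSCs. Its interaction was 2.55 (edgeR adjusted p = 0.000654). Ap1s2 and Erp29 were also called in opposite directions, and lost their mutant call in 3 and 6 of 8 fits without 1 library, with adjusted p of up to 0.111 and 0.128.

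**Figure D5:**
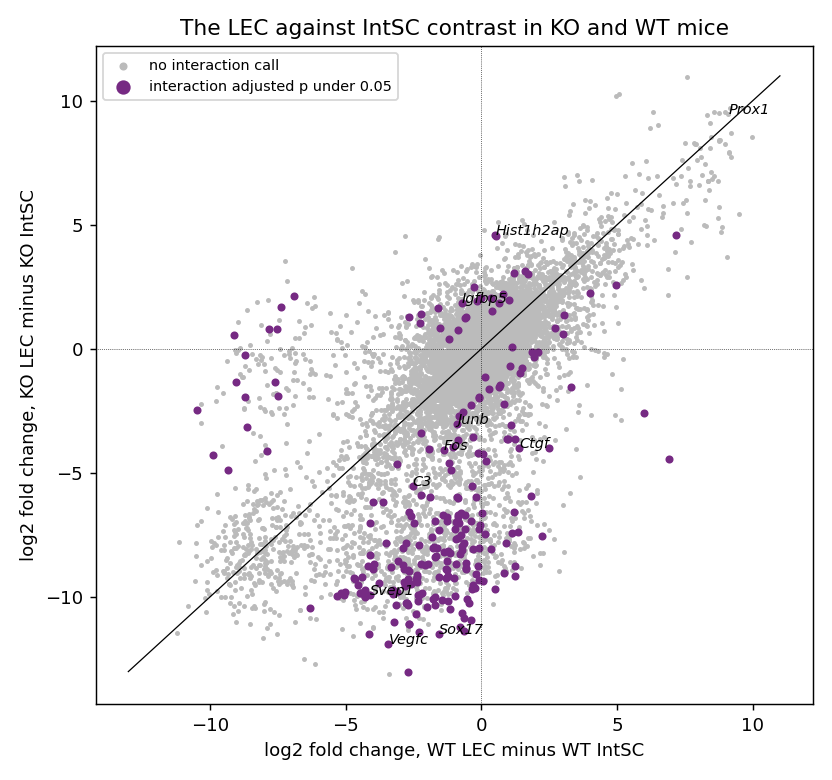
Each point is 1 gene tested in both genotypes, with its log2 fold change, LEC over IntSC, in WT mice on the x axis and in mutant mice on the y axis. Purple points passed the interaction test. Points follow the diagonal loosely (Pearson r 0.656 across genes), and most purple points lie below it, on the side where the contrast was more negative in the mutant mice.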

How the data were processed

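Libraries were made with a 3′ kit (LEXOGEN QuantSeq), sequenced on a NextSeq 500 and, as the study's methods state for the IntSCs, aligned with TopHat. The submitters' processing notes list Bowtie2, edgeR and mm10. The counting program and the annotation are not given in the sources used here. The deposited table holds whole-number counts per gene made by the authors, with no normalization, on 23282 rows with 23238 distinct symbols, of which the 35 found on more than 1 row were summed. Levels were not divided by length, since reads come from transcript ends.

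Genes passing edgeR's filterByExpr were scaled by TMM and tested with glmQLFit and glmQLFTest in edgeR 4.0.16 (R 4.3.3), with Benjamini-Hochberg adjustment over all genes tested and a threshold of 0.05. KO LECs and KO IntSCs were fitted alone, and all 4 groups together for the difference between genotypes. CPM are counts per 1000000 of the TMM-scaled library total. Intervals and floors (3 counts) cover counting error only, and reads carried no molecular identifiers. Alternatives used DESeq2 1.42.0 (an adjusted NA stayed NA), limma 3.58.1, other scalings and filters, a replicate block, thinning and leaving out each library. Library measures without thinning and without each library were added after seeing the data. Genes named were the 15 largest differences per direction with at least 50 CPM and no overlap, the 10 highest levels per direction with a log2 difference of at least 2, 6 interaction genes per sign with at least 10 CPM, genes called in opposite directions in the 2 genotypes, and list members by role. Some genes that these rules name are not reported here. Members and lists were chosen with earlier results of these data known. Exact tests used scipy 1.17.1 and figures matplotlib 3.10.9 (Python 3.11.15, pandas 2.3.3). The pipeline was tested on simulated data.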

Additional observations from a re-analysis of the deposited data

Results flagged for a closer look

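Among 72 values examined over the 5 KO IntSC libraries, 5 had 1 library far from the rest, where chance alone sets about 1 in 20 such groups apart. The LEC genes Flt4, Lyve1 and Nrp2 were highest in IntSC 4, Flt4 at 22.6 CPM against 4.76 to 9.76 CPM in the others, Lyve1 at 16.9 CPM against 0.673 to 4.63 CPM and Nrp2 at 288 CPM against 136 to 157 CPM. Foxc2 reached 3.54 CPM in IntSC 5 against at most 0.986 CPM, and Fabp4 reached 421 CPM in IntSC 3 against 139 to 179 CPM.

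The LEC against IntSC contrast differed between the mutant and WT mice for 34 of the genes named, by the edgeR interaction test. It was more positive in the mutant mice, on the log2 scale, for Igfbp5 (2.55, adjusted p = 0.000654), Hist1h2ap (4.09, 0.00203), Cotl1 (2.06, 0.00231), Hist1h2ao (4.03, 0.00259), Ap1s2 (3.24, 0.0182) and Erp29 (1.61, 0.0177). Epb4.1l1 also belonged to this side, with a fitted value of 6.79 (0.00393), and since it was near 0 CPM in WT LECs this value depends on the prior count. Epb4.1l1 was read at 28.2, 4.67 and 0 CPM in KO LEC 1 to KO LEC 3. Its mutant contrast was not called (edgeR adjusted p = 0.301).

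The contrast was more negative in the mutant mice for Svep1 (−5.78, edgeR adjusted p = 8.86e-06), Plekha6 (−6.51, 1.22e-05), Gem (−6.25, 1.22e-05), C3 (−2.99, 1.32e-05), Rarres2 (−3.91, 6.31e-05), Zeb2 (−4.60, 0.00292) and Pdgfra (−4.77, 0.00907). The same held for Gli1 (−5.33, 0.0330), Ctgf (−5.36, 0.00750), Fos (−2.67, 0.00233) and Junb (−2.14, 0.00203). It also held for Lama2 (−5.65, edgeR adjusted p = 0.00614), Pdgfb (−6.46, 0.0182), Ackr3 (−1.73, 0.0201), Ppap2b (−1.16, 0.0434) and Col3a1 (−2.17, 0.0438). The interactions of Gli1, Ppap2b and Col3a1 passed under 11, 7 and 9 of 22 alternatives, and those of Svep1, C3 and Rarres2 under all 22. Vegfc and Sox17 had no read in KO LECs, so their fitted values of −8.45 (edgeR adjusted p = 0.0390) and −9.92 (0.0292) depend on the prior count and are no measure of size. The same limit applies to genes with at most 2 counts in KO LECs, which were Plekha6 (−6.51, edgeR adjusted p = 1.22e-05), Nfatc4 (−7.34, 0.00526), Cxcl16 (−6.03, 0.0122), Fmod (−8.42, 0.0156), Lox (−7.17, 0.0168), Sema3c (−7.93, 0.0177), Cxcl14 (−7.63, 0.0201), Bmpr1a (−6.23, 0.0205), Gm15217 (−10.3, 0.0212) and Hspb7 (−4.10, 0.0463). The interaction of Hspb7 passed under 6 of 22 alternatives.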

How the results depend on the processing

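The 3302 calls between KO LECs and KO IntSCs (1162 toward LECs, 2140 toward IntSCs) became 2060 when limma-voom estimated the variance of each cell type apart, with 1006 toward IntSCs, and 895 with a replicate block (390 and 505). No gene called by edgeR was called in the opposite direction under any alternative run. The other tools, scalings and filters gave 2853 to 4342 calls, and limma-voom moved the median of all genes to −0.94. Leaving out 1 library gave 2557 to 3320 calls, 894 to 1170 toward LECs and 1659 to 2205 toward IntSCs. After group means were removed, same-numbered libraries correlated at 0.0314, −0.00712 and −0.0264, and the other pairs at −0.0275 to 0.0363. These values cannot decide whether same-numbered libraries share a mouse. With the block, 92 of 256 called genes chosen by the naming rules lost their call. Of these 256 genes, 213 kept their call in every fit without 1 library. In WT mice, 2763 calls became 1596 with the replicate block and 2233 to 2889 without 1 library. The 238 interaction calls became 1035 with DESeq2, 16 with the replicate block and 161 to 461 without 1 library. The difference in genes detected, −3443.7, ran from −3858.3 to −2993.3 without 1 library. Where a cause is not given by the alternative itself, the cause was not tested. With 3 LEC libraries, a gene without a LEC read can still lie at up to 0.124 CPM.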
